A study of Mus musculus with 9 samples.

Results

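This section follows 9 interferon response and guanylate-binding protein (GBP) genes of the mouse through loss and return of Suz12, a core subunit of Polycomb repressive complex 2. The genes are Stat2, Irf1, Irf7, Isg15, Ifit1, Gbp2, Gbp3, Gbp4 and Gbp7, and all 9 were found by symbol among 48440 counted genes. They were chosen by the rise of Gbp4 counts from Auxin to Re-introduction, with the other 8 interferon genes listed beside it after that rise was seen, so the values of Re-introduction against Auxin are given as a description without a test. The cells were embryonic stem cells of the J1 line kept in serum with LIF and the 2i inhibitors PD0325901 and CHIR99021, and polyadenylated RNA was sequenced. Every library, Mock included, came from the Suz12-AID genotype, in which Suz12 carries a degron that leads to its destruction when the plant hormone auxin (indole-3-acetic acid) is present. The Mock group, the control of the series, had 3 libraries, the Auxin group had 3 libraries after 50 µM auxin for 96 h, and the Re-introduction group had 3 libraries after auxin and then a washout of 4.5 h. Whether the line is 1 clone and which promoter drives the auxin receptor are not given in the sources used here, and untagged cells were not analysed here. The labels call the replicates biological but do not say that they were separate cultures, so p-values measure the spread between these libraries, which may be partly technical.

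Interferons are secreted proteins that bind receptors coupled to Janus kinases, and these phosphorylate STAT transcription factors. Type I interferons act through a complex containing STAT2 and IRF9 that binds the interferon-stimulated response element (ISRE), while interferon gamma acts mainly through the gamma-activated site (GAS). IRF1 and IRF7 are interferon-induced transcription factors that extend the response, and ISG15, the IFIT proteins and the GBPs are among its products. GBPs are large GTPases that assemble on pathogen-containing vacuoles and bacteria. Pluripotent stem cells are known for a weak response to interferon and for low expression of many of these genes.

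The total count per library ranged from 44341283 (Re-introduction replicate 2) to 113931419 (Mock replicate 1), with each mate of a read pair counted. Correlations of log2 levels were 0.989 to 0.995 within groups and 0.936 to 0.977 between groups. Slopes on exon length were fitted for 10177 of the more abundant protein-coding genes, to deviations from each gene's mean over the 9 libraries. They were −0.246 to −0.168 (log2 units per doubling of length) in Mock and 0.083 to 0.097 in Re-introduction. In Auxin the values were 0.15 and 0.154 in replicates 1 and 3 and 0.013 in replicate 2, which stands apart. Mitochondrial genes took 4.58% to 4.8% of counts in Re-introduction and 3.79% to 4.0% in the other libraries. The degron acts on protein, so Suz12 mRNA checks no label; it was 133.1 ± 6.62 CPM in Mock (counts scaled to library size; SD, n = 3 here and below), 141.3 ± 16.9 in Auxin and 167.6 ± 4.47 in Re-introduction. The 8 stem cell markers summed to 4850 to 5110 CPM in Mock, 5420 to 5920 in Auxin and 4240 to 4330 in Re-introduction. The 8 leukocyte markers summed to 7.57 to 8.78 CPM in Mock, 3.84 to 4.1 in Auxin and 2.96 to 3.43 in Re-introduction. The leukocyte sum was mostly Cd68, and the defining gene Ptprc was at 0 CPM in Mock and Re-introduction and at 0.00813 CPM in Auxin. Of the 3 leukocyte markers that could be tested, 2 fell and 1 rose in Auxin against Mock, where 34.8% of all genes fell and 38.4% rose. The 8 fibroblast markers summed to 22.8 to 25.2, 45.5 to 54.6 and 41.7 to 42.9 CPM in the 3 groups in the same order, and the 5 endothelial markers, mostly Pecam1, which stem cells also express, to 72.9 to 74.8, 180 to 193 and 79 to 84.5 CPM. The part of other cell types in the results below was not tested. In bulk RNA, fewer cells expressing a gene and less of its RNA per cell cannot be told apart.

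The 9 genes differed widely in abundance. Per kilobase of exon, Stat2 and Irf1 led in Mock, at 8.26 ± 0.145 and 7.94 ± 0.277 CPM per kb, with overlapping spreads. Gbp4 followed at 0.35 ± 0.0401 CPM per kb. The other 6 genes each had a group mean under 0.1 CPM per kb in every group. In Auxin the order at the top was Stat2 (7.96 ± 0.42 CPM per kb), Irf1 (4.32 ± 0.562) and then a cluster of rare transcripts. Irf7 had the highest mean of that cluster, and Gbp4 (0.0215 ± 0.00699) and Isg15 (0.0234 ± 0.00993) did not differ beyond their spread. In Re-introduction Stat2 stood at 10.3 ± 0.194, Irf1 at 6.32 ± 0.263 and Gbp4 at 0.262 ± 0.0491 CPM per kb. Gbp2, Gbp3, Gbp7, Isg15 and Ifit1 were too rare to enter the test, which was run on 20838 genes, and Gbp4, Irf1, Irf7 and Stat2 entered it.

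**Figure D1:**
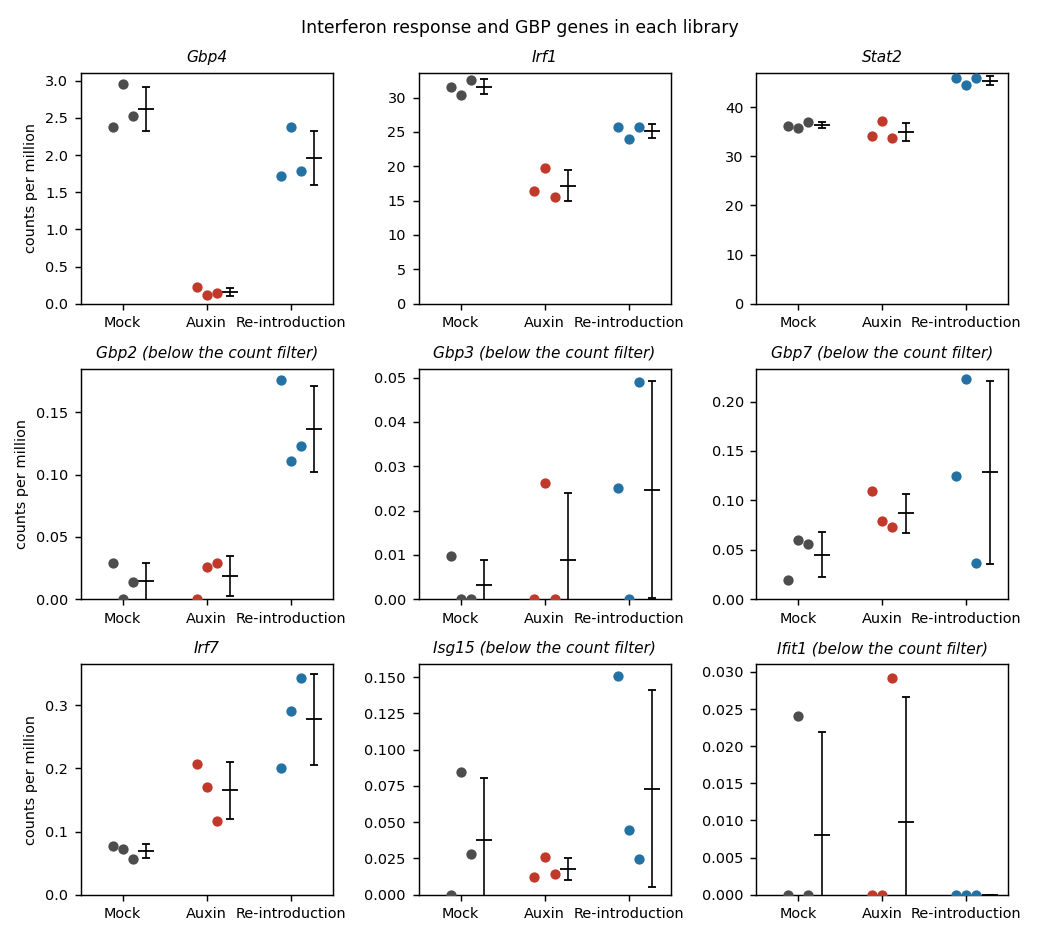
Normalised read counts (CPM, linear axes from 0, each panel with its own scale) of the 9 genes in Mock, Auxin and Re-introduction; each point is 1 library and the bar to its right is the mean ± SD of 3 libraries, cut off at 0. Gbp4 lies between 0.118 and 0.22 CPM in Auxin and between 1.72 and 2.96 CPM in the other libraries, while most panels of genes below the count filter hold libraries at or near 0.

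Among the 4 tested genes, Auxin against Mock gave 1 called higher (Irf7) and 2 called lower (Gbp4 and Irf1), where a gene is called at an adjusted p-value under 0.05 from edgeR's quasi-likelihood test. Of all genes tested in this comparison, 73.2% were called, with 38.4% higher and 34.8% lower. Re-introduction against Mock gave 2 called higher (Irf7 and Stat2) and 2 lower (Gbp4 and Irf1), against 68.1% of all genes called, 34.7% higher and 33.4% lower. Irf7 passed the count filter, which asks for 0.131 CPM in 3 libraries, through 2 Auxin and 3 Re-introduction libraries and no Mock library, so its call in these counts supports nothing. In the comparisons with Mock, 3 and 4 called of 4 tested lie too near these backgrounds to be a result about the 9 genes. The libraries of the compared groups did not overlap for 3 of the 4 genes in Auxin against Mock (74.3% of all genes), for 3 in Re-introduction against Auxin (58.2%), the comparison that chose the genes, and for 3 in Re-introduction against Mock (75.2%). The median log2 fold changes of the 4 tested genes were −0.46, 0.64 and 0.00 in Auxin against Mock, Re-introduction against Auxin and Re-introduction against Mock, beside 0.05, 0.00 and 0.03 over all genes tested. These medians and the counts of groups that did not overlap include Gbp4, whose rise chose the set. They also include Irf7, which passed the filter without a Mock library, so they are a description and nothing is read from them.

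Stat2 encodes a STAT that acts with IRF9 in the type I interferon transcription complex. The gene (ENSMUSG00000040033.15; mm10, chr10:128270576-128292849, plus strand) had 36.1, 35.8 and 37.0 CPM in Mock replicates 1 to 3, then 34.2, 37.1 and 33.7 with Auxin and 45.9, 44.4 and 45.9 with Re-introduction. The Re-introduction libraries were above all others, and the Mock and Auxin libraries overlapped. Stat2 did not pass the threshold in Auxin against Mock (log2 fold change −0.05, SE 0.05, adjusted p = 0.385). It rose in Re-introduction against Mock by 0.32 (SE 0.05, adjusted p = 0.000274), which is 1.25-fold. Against Auxin the difference was 0.38 (SE 0.05). Scaled by total counts, a choice that moves the median of all genes in Auxin against Mock from 0.05 to 0.26, the Auxin difference of Stat2 became 0.16 (adjusted p = 0.0157), and with length trends removed it was −0.14 (adjusted p = 0.0361).

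Irf1 is a transcription factor that activates many GBP and antigen presentation genes. Its gene (ENSMUSG00000018899.16; chr11:53770014-53778374, plus strand) had 31.6, 30.4 and 32.6 CPM in Mock, then 16.4, 19.7 and 15.5 with Auxin and 25.7, 23.9 and 25.7 with Re-introduction. The groups stood in 3 separate ranges, with Auxin lowest and Re-introduction between. Irf1 fell 1.84-fold in Auxin against Mock (log2 fold change −0.88, SE 0.09, adjusted p = 2.51e-06). In Re-introduction it was 0.55 above Auxin (SE 0.09) and 0.33 below Mock on that scale (log2 fold change −0.33, SE 0.08, adjusted p = 0.00475). Irf1 shares 135 bases of exon with Gm17334, and the counting used no strand. Without Auxin replicate 2, the library with the different length trend, its Auxin difference from Mock was −0.99 (adjusted p = 1.2e-09).

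Irf7, which amplifies interferon production in infected cells, was rare. Its gene (ENSMUSG00000025498.15; chr7:141262706-141266481, minus strand) held 8, 6 and 4 counts in Mock, then 17, 13 and 8 with Auxin and 16, 13 and 28 with Re-introduction. As CPM, Mock had 0.0776, 0.0724 and 0.056, Auxin 0.207, 0.171 and 0.117, and Re-introduction 0.201, 0.29 and 0.343. All Mock libraries were below all others, and the Auxin and Re-introduction libraries overlapped. The ratio of summed counts, scaled for depth, was 2.4 in Auxin over Mock (95% exact interval 1.33 to 4.46) and 3.95 in Re-introduction over Mock (2.29 to 7.14). Fitted without the count filter, which Irf7 passed only through the groups where it was high, it rose in Auxin against Mock by 1.23 (SE 0.50, adjusted p = 0.046) and in Re-introduction against Mock by 1.97 (SE 0.48, adjusted p = 0.00145). In a fit of the Auxin and Mock libraries alone it did not pass the filter. With the filter, the Auxin difference was 1.24 (adjusted p = 0.0176), and the call was lost without Mock replicate 3 (1.12, adjusted p = 0.0572) and without Auxin replicate 1 (1.03, adjusted p = 0.0785). The gene shares 45 bases of exon with Phrf1 on the opposite strand, and without strand the reads of the pair cannot be told apart there.

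Isg15 encodes a ubiquitin-like protein that is attached to other proteins after interferon, and Ifit1 an RNA-binding protein that blocks translation of viral RNA. Isg15 (ENSMUSG00000035692.6; chr4:156199424-156200818, minus strand) held 0, 7 and 2 counts in Mock, then 1, 2 and 1 with Auxin and 12, 2 and 2 with Re-introduction. A single Re-introduction library carried most counts of its group, and all 3 groups overlapped. The ratio of summed counts after scaling for depth was 0.505 in Auxin over Mock (95% exact interval 0.114 to 1.81) and 2.22 in Re-introduction over Mock (0.923 to 5.7). Such intervals cover counting error only, and they are too narrow where mates of a pair were both counted.

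Ifit1 (ENSMUSG00000034459.8; chr19:34640871-34650009, plus strand) held 4 counts in all: 2 in Mock replicate 2 and 2 in Auxin replicate 3. No count fell in Re-introduction, which allows a level of up to 0.0145 CPM for the group (3 counts over its libraries). No fold is given, since both sides of each comparison were at or under 3 counts. Without the filter, neither gene passed the threshold against Mock (adjusted p = 0.533 for Isg15 and 0.983 for Ifit1 in Auxin, 0.473 and 0.413 in Re-introduction), so a difference from Mock was not detectable at this depth.

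Per kilobase, Gbp4 was the most abundant GBP gene in Mock and Re-introduction. Its gene (ENSMUSG00000079363.7; chr5:105115767-105139586, minus strand) held 245, 245 and 181 counts in Mock, then 18, 9 and 10 with Auxin and 137, 107 and 145 with Re-introduction. As CPM, Mock had 2.38, 2.96 and 2.53, Auxin 0.22, 0.118 and 0.146, and Re-introduction 1.72, 2.38 and 1.78. The Auxin libraries lay far below all others, and 1 Re-introduction library reached the lowest Mock library. Group means were 2.622 ± 0.3, 0.1612 ± 0.0524 and 1.96 ± 0.368 CPM.

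Gbp4 fell 15.9-fold in Auxin against Mock (log2 fold change −3.995, SE 0.23, adjusted p = 4.34e-08). This comparison shares the Auxin libraries with the one that chose Gbp4, so it is not independent of the choice. After washout, its level was 3.56 above Auxin on the log2 scale (SE 0.24), or 11.8-fold higher. Re-introduction stood below Mock (log2 fold change −0.44, SE 0.17, adjusted p = 0.0413), and this call was not stable. It was lost with scaling by total counts (−0.31, adjusted p = 0.143), with a replicate block (−0.43, adjusted p = 0.0536), and without Mock replicate 2 (−0.36, 0.127), Mock replicate 3 (−0.48, 0.0605), Re-introduction replicate 1 (−0.37, 0.128) or Re-introduction replicate 3 (−0.39, 0.118). With length trends removed it was −0.79, and with length and GC trends removed −0.94 (adjusted p = 0.000204). Without Auxin replicate 2, the fall of Gbp4 in Auxin against Mock was −3.81 (adjusted p = 2.76e-09); without that library Irf7 was 1.22 (adjusted p = 0.0461) and Stat2 −0.10 (adjusted p = 0.0656) in the same comparison. Gbp4 has 7494 bases of exon and shares 61 of them with Gbp8 and 60 with Gbp9.

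The remaining 3 GBP members lie together on chromosome 3. Gbp2 (ENSMUSG00000028270.12; chr3:142620602-142638008, plus strand) held 3, 0 and 1 counts in Mock, then 0, 2 and 2 with Auxin and 14, 5 and 10 with Re-introduction. Every Re-introduction library was above every other library, at 0.111 to 0.176 CPM against at most 0.0292. The ratio of summed counts was 9.05 in Re-introduction over Mock (95% exact interval 3.18 to 35.4) and 1.14 in Auxin over Mock (0.211 to 6.1). Fitted without the filter on low counts, Gbp2 had a log2 fold change of 3.06 in Re-introduction against Mock (SE 0.97, adjusted p = 0.0119), a value that depends on the prior count because Mock held 4 counts.

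Gbp7 (ENSMUSG00000040253.15; chr3:142530342-142550149, plus strand) held 2, 5 and 4 counts in Mock, then 9, 6 and 5 with Auxin and 10, 10 and 3 with Re-introduction. The Auxin libraries (0.073 to 0.11 CPM) were above the Mock libraries (0.0194 to 0.0604), and Re-introduction overlapped both. The ratio was 2.06 in Auxin over Mock (0.943 to 4.77) and 2.61 in Re-introduction over Mock (1.22 to 5.93). Without the filter, neither difference passed the threshold in the edgeR fit (adjusted p = 0.337 and 0.148). Gbp7 shares 637 bases of exon with the pseudogene Gm43802.

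Gbp3 (ENSMUSG00000028268.14; chr3:142560026-142573209, plus strand) held 1, 0 and 0 counts in Mock, then 0, 2 and 0 with Auxin and 2, 0 and 4 with Re-introduction. Each group had at least 1 library at 0. Its ratio in Re-introduction over Mock was 7.49 with an interval from 0.909 to 344, so no difference was detectable at this depth. Counts of near-identical GBP copies are uncertain, since reads that fit several genes may be split or left out.

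The GBP family outside the 9 genes was also rare, and Gbp2b and Gbp9 alone entered the test. Gbp2b, the neighbour of Gbp2, held 4, 0 and 0 counts in Mock, then 3, 10 and 2 with Auxin and 29, 15 and 18 with Re-introduction. All Re-introduction libraries were above the rest, as for Gbp2. Gbp2b passed the count filter through 3 Re-introduction libraries and 1 Auxin library, so its filtered test is not used. The ratio of summed counts was 19.3 in Re-introduction over Mock (interval 7.19 to 73.2) and 4.26 in Auxin over Mock (1.36 to 17.6). Fitted without the filter, it rose in Re-introduction against Mock by 4.19 (SE 0.80, adjusted p = 0.000106) and did not pass in Auxin against Mock (2.01, SE 0.94, adjusted p = 0.0861). Mock replicate 1 held all Mock counts. Without it the filtered fit gave 7.476 in Re-introduction against Mock and 5.314 in Auxin against Mock, as a description only. These values depend on the prior count, since both remaining Mock libraries were at 0.

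Gbp9, which lies beside Gbp4 on chromosome 5, had 0.4784 ± 0.0805 CPM in Mock, 0.2604 ± 0.059 in Auxin and 0.4586 ± 0.265 in Re-introduction. Its Auxin libraries were all below the Mock libraries, with a log2 fold change of −0.86 that missed the threshold (SE 0.38, adjusted p = 0.061). It passed in 10 of the alternative settings. Gbp5 had no count in any library, which allows up to 0.00435 CPM over all 9. Gbp6, Gbp8, Gbp10 and Gbp11 held at most 8 counts in a library.

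The immunity-related GTPases (IRGs), which act with GBPs on vacuoles, were all 6 tested. In Auxin against Mock 4 of 6 fell and none was called higher, where 34.8% of all genes fell and 38.4% rose. With scaling by total counts, and also with length trends removed, 3 fell and 1 rose in this comparison. Of all 20838 genes, 5662 fell and 9748 rose with total counts, and 6797 fell and 8508 rose with length trends removed. In Re-introduction against Mock 3 fell and Gm12250 rose, where 33.4% of all genes fell and 34.7% rose. Gm12250 was 0.38 higher in Auxin than in Mock (SE 0.18, adjusted p = 0.0851), and it passed under 5 of 20 alternatives, among them scaling by total counts (0.589, adjusted p = 0.0118) and removal of length trends (0.743, adjusted p = 0.00235). The median log2 fold changes of the 6 genes were −1.43 and −0.52. Irgm1 had 7.603 ± 0.452 CPM in Mock, 2.067 ± 0.0882 in Auxin and 5.927 ± 0.756 in Re-introduction, and fell by 1.88 in Auxin against Mock (SE 0.11, adjusted p = 3.99e-08). Its difference in Re-introduction against Mock was −0.37 (SE 0.10, adjusted p = 0.00762), and that call was lost with scaling by total counts (−0.235, adjusted p = 0.0522). Tgtp1 had 1.79 ± 0.232, 0.1527 ± 0.0593 and 0.6093 ± 0.15 CPM, and fell by 3.56 in Auxin (SE 0.28, adjusted p = 4.02e-07) and by 1.55 in Re-introduction against Mock (SE 0.23, adjusted p = 0.000112). Tgtp1 and Tgtp2 are near-identical copies, so their separate counts are uncertain. Gbp4, Irgm1 and Tgtp1 each had their lowest group in Auxin and an intermediate mean in Re-introduction. Of all 20838 genes tested, 3619 were called lower in Auxin against Mock and passed the threshold upward in Re-introduction against Auxin. That count does not ask for an intermediate level. Gbp4 was chosen for its rise, so nothing is read from this likeness.

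**Figure D2:**
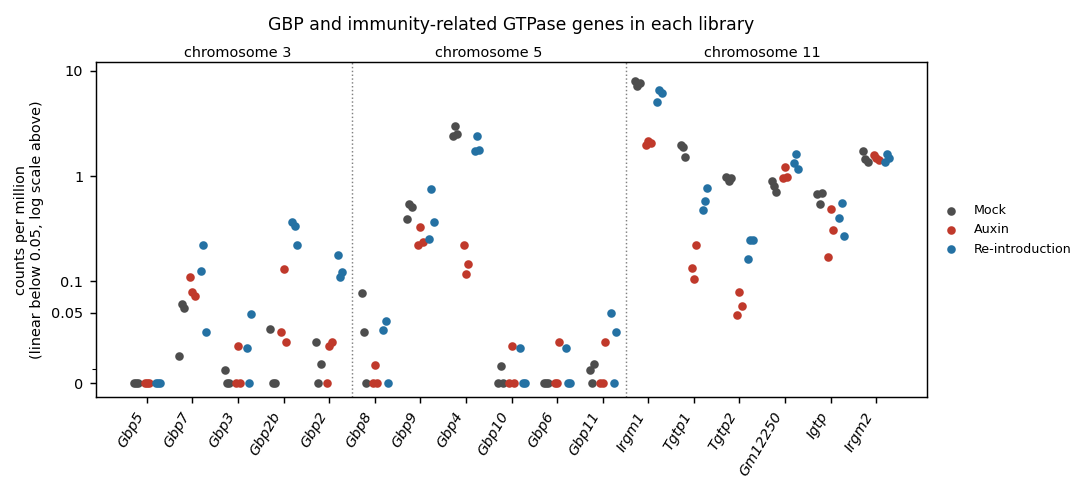
Normalised read counts (CPM; linear below 0.05 and logarithmic above) of 11 GBP genes and 6 immunity-related GTPase genes in order along their chromosomes; each point is 1 library. Gbp4, Irgm1, Tgtp1 and Tgtp2 are lowest in the 3 Auxin libraries, while Gbp2 and Gbp2b are highest in the 3 Re-introduction libraries.

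To show which of these genes carry interferon response letters near their start, the 250 bases before each start were read from RefSeq (GRCm38.p6, the mm10 build), where 8 of the 9 genes had an entry; Gbp4 had none. The letters searched on both strands were GAAA, NN and GAAA in a row for the ISRE core, found in 2.98% of 32851 such windows, and TTCNNNGAA for the GAS, found in 7.02%; the motifs may overlap. The ISRE core was present for Gbp2, Gbp3, Gbp7, Isg15, Ifit1 and Stat2, and the GAS for Gbp7 and Irf1. The window of Irf7 held neither. All 6 IRG windows held the ISRE core and 5 held the GAS, but the RefSeq starts of Irgm1 and Tgtp1 lie 263 and 1926 bases inside the counted genes. The RefSeq start of Gbp2 (142620663) lies 61 bases inside the counted gene, so its match, which is before the RefSeq start, is inside the gene as counted. The matches of the other 6 genes shown lie outside the counted genes. The stretches below, shown for each of the 9 genes with a match, run 5′ to 3′ on the strand of the gene, with the matches in capitals. They lie at chr3:142620579-142620621 (plus strand, Gbp2), chr3:142559974-142560039 (plus, Gbp3), chr3:142530205-142530317 (plus, Gbp7), chr4:156200850-156200921 (minus, Isg15), chr19:34640760-34640838 (plus, Ifit1), chr10:128270251-128270310 (plus, Stat2) and chr11:53769899-53769957 (plus, Irf1).
Gbp2: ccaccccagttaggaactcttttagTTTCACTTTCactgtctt
Gbp3: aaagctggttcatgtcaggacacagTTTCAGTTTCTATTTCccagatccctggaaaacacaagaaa
Gbp7: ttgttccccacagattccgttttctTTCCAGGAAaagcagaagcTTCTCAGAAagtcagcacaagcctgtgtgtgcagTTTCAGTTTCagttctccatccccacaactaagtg
Isg15: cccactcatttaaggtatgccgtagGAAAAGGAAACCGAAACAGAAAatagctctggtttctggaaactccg
Ifit1: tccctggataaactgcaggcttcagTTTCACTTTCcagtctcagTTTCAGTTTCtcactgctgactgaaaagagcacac
Stat2: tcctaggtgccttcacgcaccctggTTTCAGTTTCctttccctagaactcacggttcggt
Irf1: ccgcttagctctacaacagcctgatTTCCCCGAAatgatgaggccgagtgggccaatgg

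Isg15 had 3 overlapping ISRE core matches, from 78 to 57 bases before its start, and Ifit1 had 2. Stat2 had 1 match at 222 to 213 bases before its start. Gbp3 had 2 overlapping ISRE core matches, and Gbp7 had 1 with 2 GAS matches. Genes with such letters include a transcript near 0 in all libraries (Ifit1) and an abundant one (Stat2). A match is a description of letters and not of a bound site.

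The ligands of the pathway were all but absent. None of the 13 interferon ligand genes entered the test, and 10 of them, Ifnb1 and Ifng included, had no count in any library, which allows each up to 0.00435 CPM. The receptors and Janus kinases were present: all 9 were tested, and in both Auxin against Mock and Re-introduction against Mock 8 rose and 1, Tyk2, fell, beside 38.4% and 34.7% of all genes that rose. With scaling by total counts 8 were called higher and none lower in both comparisons. Of all 20838 genes, 9748 rose and 5662 fell with that scaling in Auxin against Mock, and 8570 and 5736 in Re-introduction against Mock. Ifngr1, a chain of the interferon gamma receptor, went from 2.004 ± 0.0214 CPM in Mock to 12.08 ± 0.993 in Auxin and 6.233 ± 0.191 in Re-introduction, a rise of 2.59 (SE 0.09, adjusted p = 7.05e-10) and of 1.63 (SE 0.09, adjusted p = 5.56e-08) against Mock. Jak1 had 35.35 ± 0.898, 88.01 ± 2.11 and 104.1 ± 4.11 CPM. Of 12 tested IRF and STAT factors outside the 9 genes, 9 rose and 2 fell in Auxin against Mock. In Re-introduction against Mock 5 rose and 3 fell. Of all genes, 38.4% rose and 34.8% fell in Auxin against Mock, and 34.7% and 33.4% in Re-introduction against Mock. With length trends removed, 6 of these factors rose and 3 fell in Auxin against Mock, and 3 rose and 6 fell in Re-introduction against Mock. At that setting, 8508 of all 20838 genes rose and 6797 fell in the first comparison, and 7092 and 6892 in the second. Irf9, whose product acts with STAT2, fell by 0.28 in Auxin against Mock (SE 0.06, adjusted p = 0.00164). These levels are in the plot of signalling gene levels.

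**Figure D3:**
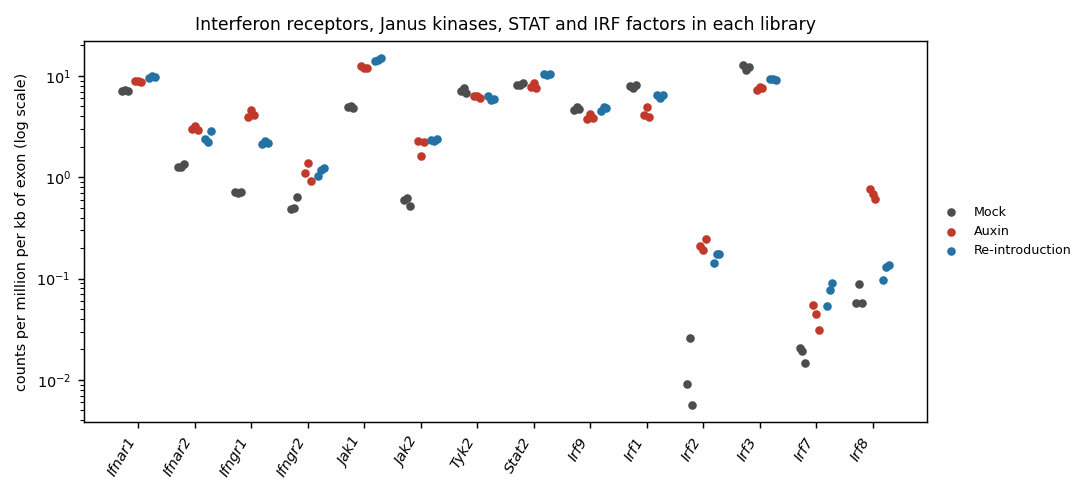
Normalised read counts per kilobase of exon (CPM per kb, log scale) of receptor, kinase, STAT and IRF genes; each point is 1 library. Ifngr1, Jak1, Jak2, Irf2 and Irf8 are lowest in Mock, Irf1 and Irf3 are highest in Mock, and Stat2 is highest in Re-introduction.

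Among 124 other pathway genes that matched (1 of 125 listed, Rigi, did not), 90 were tested. In Auxin against Mock 35 rose and 33 fell (43 and 27 with scaling by total counts), and in Re-introduction against Mock 35 rose and 26 fell (42 and 20). With scaling by total counts, 9748 of all 20838 genes rose and 5662 fell in the first comparison, and 8570 and 5736 in the second. With the reported scaling, 38.4% of all genes rose and 34.8% fell in the first comparison, and 34.7% and 33.4% in the second. The list median was 0.09 in each, beside 0.05 and 0.03 over all genes, and in Re-introduction against Auxin it was 0.13 beside 0.00. Of 30 tested type I effectors, 7 rose and 15 fell in Auxin, and 8 rose and 11 fell in Re-introduction against Mock (12 and 10 with scaling by total counts). Oas1a, an antiviral RNA sensor, fell by 1.93 (SE 0.08, adjusted p = 3.14e-09) and by 0.98 (SE 0.08, adjusted p = 8.92e-07). Bst2, which tethers virus particles to the cell, fell by 1.97 and 2.16, with 25.98 ± 2.89 CPM in Mock, 6.62 ± 0.385 in Auxin and 5.841 ± 0.254 in Re-introduction. Among the tested effectors, Trim30a held 11 summed counts in Mock against 105 in Auxin, and Oasl2 held 9 against 32. Of the other pathway genes, Usp18 and Gbp2b passed the count filter without a Mock library. Such genes can enter the test through the group where they are high, so nothing is read from the counts of risen genes.

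In the antigen presentation list, 5 of 13 rose and 4 fell in Auxin, and 3 rose and 7 fell in Re-introduction against Mock; Psmb10, an immunoproteasome subunit, fell by 2.47 in Auxin (SE 0.10, adjusted p = 3.21e-09) and B2m rose by 1.19 (SE 0.06, adjusted p = 1.67e-08). Of 10 tested sensors and adaptors, 2 rose and 4 fell in Auxin and 5 rose and none fell in Re-introduction against Mock (6 and 1 with length trends removed). Of 8 negative regulators, 4 rose and 3 fell in Auxin and 4 rose and 1 fell in Re-introduction against Mock. Usp18, which passed the count filter without a Mock library, was among these 8. In the NF-kB list, 8 of 11 rose and 2 fell in Auxin, and 8 rose and 1 fell in Re-introduction against Mock. In the LIF and STAT3 list of 8, the counts were 3 and 5, then 4 and 3. Beside the counts of these 5 lists, 38.4% of all genes rose and 34.8% fell in Auxin against Mock. In Re-introduction against Mock the shares were 34.7% and 33.4%. With length trends removed, 7092 of all 20838 genes rose and 6892 fell in that comparison.

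**Figure D4:**
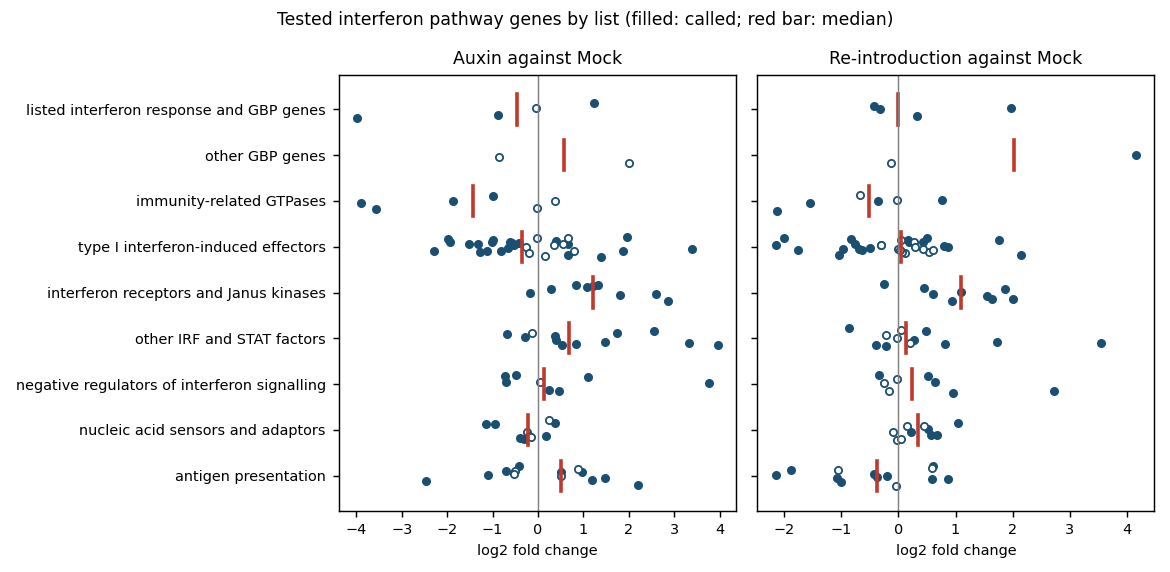
Log2 fold changes of the tested genes in each list for Auxin against Mock (left) and Re-introduction against Mock (right); filled points were called, open points were not, and the red bar is the median of the list. Gbp4 is the leftmost point of the top row on the left at −3.995, and the receptors and Janus kinases lie to the right of 0 except for Tyk2.

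The genes whose log2 CPM followed Gbp4 most closely over the 9 libraries, among 15930 genes with at least 1 CPM in a group, were Tfrc (Pearson r = 0.997), Gm13676 (0.997), Gm13359 (0.995), Srrm1 (0.994) and Fancb (0.994). These values describe 9 libraries in 3 groups and carry no test. Tfrc, the transferrin receptor gene, had 649 ± 18.5 CPM in Mock, 257 ± 19.2 in Auxin and 598 ± 25.6 in Re-introduction, a smaller relative difference than Gbp4. No gene of the interferon lists was among these 5.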

How the data were processed

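Polyadenylated RNA of 9 libraries was counted per gene. Per the file headers, the deposited values are raw counts from the authors' run of featureCounts 2.0.6 (exons summed per gene of mm10, paired-end mode, no strand or read-pair setting), so mates were counted singly. The submitters' processing notes also name Trim Galore 0.6.10, FastQC 0.12.1, Bowtie2 2.5.3 and SAMtools 1.20, with no role. Symbols matched 48058 of 48440 genes.

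Counts entered edgeR 4.0.16 (R 4.3.3): filterByExpr, TMM factors, 1 quasi-likelihood fit of all 9 libraries with group as the term, two-sided tests and Benjamini-Hochberg adjustment over 20838 genes. The common biological coefficient of variation was 9.15%. Standard errors come from the F statistic. CPM use TMM-scaled totals; CPM per kb divide by exon length. Ratios of summed counts have exact 95% intervals. On simulated counts, 200 of 20838 genes were changed 2-fold. The test recovered 75.0% of them in Auxin against Mock (5.7% of calls false) and 74.5% in Re-introduction against Auxin (6.3%). In Re-introduction against Mock it recovered 73.5% (3.9%). In the real counts, 73.2% of genes were called in Auxin against Mock and 68.1% in Re-introduction against Mock. The share of false calls with that many genes changed was not tested.

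The 9 genes and the lists were chosen with earlier results of these data known. Named pathway genes were drawn from the up to 3 with the smallest p-value per list in each comparison with Mock, at 1 CPM or more; Tyk2, Irf9, Irf3, Tgtp2, Ifnb1, Ifng, Ptprc, Cd68 and Pecam1 were named after their values were seen. A gene of the lists enters their counts and is not reported here. Alternatives were other scalings (DESeq2 1.42.0 size factors, total counts), filters, the DESeq2 Wald test, fits of the groups compared, a replicate block, length and GC trends removed, halved counts, and each library left out.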

Additional observations from a re-analysis of the deposited data

How the results depend on the processing

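Over 20 alternatives, each count of calls against Mock stayed within 1.5 times its reported value. Of the 9 genes, 2 to 4 were called in Auxin against Mock and 3 to 5 in Re-introduction against Mock. In the reported fit, 73.2% and 68.1% of all genes tested were called in these comparisons. Of 1788 single-gene values in these comparisons, 1697 kept their direction and side of the threshold, 33 lost a call, 42 gained one and 16 changed sign. The values cover tested genes among the 9, other GBP genes, and genes named for their small p-values in these same comparisons. Genes chosen that way tend to keep their calls, so the tally is a description only. As each library was left out, Gbp2b in the filtered fit ranged from 1.034 to 5.314 in Auxin against Mock. In Re-introduction against Mock it ranged from 3.641 to 7.476, and both were highest without Mock replicate 1. These Gbp2b values are a description only, since no Mock library of it passed the count filter. Scaling by total counts moved the median of all genes from 0.05 to 0.26 in Auxin against Mock and from 0.03 to 0.16 in Re-introduction against Mock. Changes of sign from that scaling were Stat2 (0.156) and Stat6 (0.088) in Auxin against Mock and Sting1 (0.105) in Re-introduction against Mock. With a filter of 1 CPM in 3 libraries, Stat2 in Auxin against Mock was 0.016. In Re-introduction against Mock, removing length trends gave 0.111 for Sting1 and −0.044 for Tfcp2l1, and removing length and GC trends gave 0.187 and −0.009; Nfkb1 in Auxin against Mock was then −0.030. Leaving out each library in turn gave, in Re-introduction against Mock, −0.616 to 0.157 for Gbp9 (above 0 without Re-introduction replicate 1), −0.103 to 0.008 for Sting1 (above 0 without Re-introduction replicate 2) and −0.110 to 0.148 for Dhx58 (below 0 without Mock replicate 2, and −0.092 without Re-introduction replicate 1), and −0.103 to −0.025 for Stat2 in Auxin against Mock. The cause was not tested.

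Deviations from the group mean correlated between −0.172 and 0.0547 in same-numbered libraries and between −0.177 and 0.239 in others. Within a group of 3 libraries the deviations sum to 0, so these values cannot exclude a pairing by replicate number. With a replicate block, 3 of the 9 genes passed the threshold in each comparison with Mock. Of the other pathway genes, 67 and 61 passed in Auxin against Mock and Re-introduction against Mock. Of all 20838 genes tested, 14808 and 13639 passed with the block in the same comparisons. With the block and length and GC trends removed, Sting1 was 0.186 and Tfcp2l1 −0.008 in Re-introduction against Mock, and Nfkb1 −0.031 in Auxin against Mock. Depth limits the 5 untested genes, which held at most 14 counts in a library.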

Other observations

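Some interferon genes outside the named set had almost no counts in 1 group. Sp100, which encodes a nuclear body protein, held no count in Mock against 11 in Auxin and 10 in Re-introduction. Set against a floor of 3 counts over the Mock group, this is 4.16-fold higher in each. Ifit1bl1, a gene of the Ifit cluster on chromosome 19, held 12 counts in Mock, none in Auxin and 8 in Re-introduction. Against the same floor over the Auxin group, this is 3.52-fold lower in Auxin than in Mock. Such folds leave out the counting error of the group that held counts, so they are not lower bounds. Usp18, a protease that removes ISG15 from proteins, was at 0.02084 ± 0.025 CPM in Mock, 0.3359 ± 0.0127 in Auxin and 0.1631 ± 0.0471 in Re-introduction (SD, n = 3), and rose in Auxin against Mock (log2 fold change 3.775, SE 0.61, edgeR adjusted p = 1.11e-05, fitted without the count filter, which no Mock library of it passed). These genes were chosen after their values were seen.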
